A study of Homo sapiens with 8 samples.

Results

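The IER, EGR and NR4A early genes measured here are IER2, IER3, IER5, IER5L, CSRNP1, EGR1, EGR2, EGR3, NR4A1 and NR4A3. They form a named list, matched by symbol through the gene names of the deposited comparison tables, and all 10 were present among the 63677 genes of each count table. IER3 was listed under 6 gene identifiers, of which 5 were at 0 in every library, and the values given are those of the remaining identifier. Transcripts were measured by RNA-seq in a pair of established human lines of T-cell acute lymphoblastic leukaemia (T-ALL), DND-41 and MOLT-4. ACBI-1 is a bifunctional degrader that recruits the SWI/SNF chromatin remodelling ATPases SMARCA2 and SMARCA4, and the subunit PBRM1, to the VHL ubiquitin ligase. The 4 groups were DND-41 cells given 100 nM ACBI-1 for 3 h, DND-41 cells given DMSO (the solvent) for 3 h, and MOLT-4 cells under the same pair of conditions. Each group had 2 libraries. The labels do not tell whether a pair came from separate cultures, and each p-value is measured against a library-to-library spread that may be technical.

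Early response genes are switched on within minutes of a stimulus, from existing transcription factors and without new protein synthesis, and their short-lived transcripts fall again soon after. In T cells, signals from the T-cell receptor reach them through ERK, the serum response factor SRF with its ETS partners, and calcium. EGR proteins are zinc finger factors and NR4A proteins are orphan nuclear receptors, and in mice members of both families take part in thymocyte selection and in restraint of activated T cells.

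Library totals lay between 19867779 and 20082524 counts, so that a level of 1 CPM (counts scaled to a common library size) was about 20 reads and a gene at 0 counts could have had up to 3, counting error only. Mitochondrial genes took 13.3% to 20% of the counts. To look for MOLT-4 reads in the second DND-41 DMSO library, 117 genes were chosen as high in MOLT-4 and nearly absent from the other DND-41 libraries. Over these genes the second DND-41 DMSO library carried 0.628% of the MOLT-4 level, against 0.0321% to 0.0404% in the other DND-41 libraries. The low shares of the other libraries were partly set by the choice of genes, so the contrast is a description only. The 8 T-lineage markers summed to 88372 to 90002 reads per DND-41 library and 44698 to 46696 per MOLT-4 library. Most of this gap was CD7, with 40095 to 45683 reads per DND-41 library and 1536 to 1831 per MOLT-4 library. CD3E and CD3D also had more reads in DND-41, CD1A overlapped, and CD2 and LCK had fewer in DND-41. In DND-41 CD5 had only 23 to 44 reads and PTCRA 0 to 1. TLX3 had 4611 to 7523 reads per DND-41 library and 1 to 9 per MOLT-4 library, and TAL1 had 0 to 4 per DND-41 library and 722 to 796 per MOLT-4 library. Of 4 B-cell markers, CD79A had 31024 to 35375 reads per DND-41 library and 176 to 314 per MOLT-4 library, while MS4A1 was at 0 in all 8 and PAX5 had at most 2. Myeloid markers summed to 3 to 8 reads per library, erythroid markers to 0, and epithelial and fibroblast markers to 1 to 4 per DND-41 library and 54 to 68 per MOLT-4 library. Transcripts of the degrader's targets did not pass the test in either line, with log2 changes of -0.13 and -0.07 for SMARCA2, 0.06 and 0.05 for SMARCA4, and 0.06 and -0.13 for PBRM1, in DND-41 and MOLT-4 in that order. The proteins were not measured.

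Promoter windows of 8 of the 10 genes were in the RefSeq table (GRCh38.p14), each running from 250 bases before to 50 bases after a listed transcription start; CSRNP1 and NR4A1 had 2 windows and EGR2 had 3. The files use build hg19, so these coordinates serve only to locate the sequences shown. Shown first are EGR1 and EGR2, the genes that were higher with ACBI-1 in MOLT-4 cells. Capitals mark CArG boxes, the sites bound by SRF, and the core TGACG of the cyclic AMP response element or its complement CGTCA.
EGR1 (chr5:138465229-138465528, plus strand): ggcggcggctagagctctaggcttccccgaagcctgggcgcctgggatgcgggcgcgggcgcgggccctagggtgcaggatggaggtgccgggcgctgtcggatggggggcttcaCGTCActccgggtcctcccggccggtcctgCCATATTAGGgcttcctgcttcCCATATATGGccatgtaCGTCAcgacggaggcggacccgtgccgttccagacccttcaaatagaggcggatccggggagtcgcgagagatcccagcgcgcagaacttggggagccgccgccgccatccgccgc
EGR2 (chr10:62816317-62816616, minus strand): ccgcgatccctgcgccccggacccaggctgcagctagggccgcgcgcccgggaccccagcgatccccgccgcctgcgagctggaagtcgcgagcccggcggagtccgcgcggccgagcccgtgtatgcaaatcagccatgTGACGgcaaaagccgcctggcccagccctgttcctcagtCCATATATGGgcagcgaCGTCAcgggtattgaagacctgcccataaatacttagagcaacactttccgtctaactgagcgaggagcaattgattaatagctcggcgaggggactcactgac
In EGR1 the CArG boxes CCATATTAGG and CCATATATGG began 105 and 83 bases before the start, and in EGR2 a single CCATATATGG began 71 bases before it. Both windows held 2 copies of the TGACG core. The other 2 EGR2 windows held neither motif. No other window of the 8 genes held a CArG box, a motif found on either strand in 1.29% of all 35116 windows in the table. IER3 and EGR3 had no window and were not searched, and bases further upstream were not covered for any gene. Whether a CArG box goes with the direction of change was therefore not tested.

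Next are IER2 and CSRNP1, which were lower with ACBI-1 in both lines, and NR4A3, which had almost no reads in DND-41 cells. Capitals again mark TGACG or CGTCA.
IER2 (chr19:13150161-13150460, plus strand): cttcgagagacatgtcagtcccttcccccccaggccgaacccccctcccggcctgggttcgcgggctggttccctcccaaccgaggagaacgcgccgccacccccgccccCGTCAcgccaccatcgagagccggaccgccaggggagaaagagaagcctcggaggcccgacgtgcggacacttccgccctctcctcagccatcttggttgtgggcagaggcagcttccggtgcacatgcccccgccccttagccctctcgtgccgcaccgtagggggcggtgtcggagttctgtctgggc
CSRNP1 (chr3:39153542-39153841, minus strand): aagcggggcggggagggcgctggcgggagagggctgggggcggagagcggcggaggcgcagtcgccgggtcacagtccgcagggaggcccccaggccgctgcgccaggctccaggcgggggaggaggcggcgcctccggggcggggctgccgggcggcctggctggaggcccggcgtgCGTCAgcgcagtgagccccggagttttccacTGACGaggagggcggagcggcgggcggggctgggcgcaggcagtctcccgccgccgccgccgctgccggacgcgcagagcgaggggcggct
NR4A3 (chr9:99821635-99821934, plus strand): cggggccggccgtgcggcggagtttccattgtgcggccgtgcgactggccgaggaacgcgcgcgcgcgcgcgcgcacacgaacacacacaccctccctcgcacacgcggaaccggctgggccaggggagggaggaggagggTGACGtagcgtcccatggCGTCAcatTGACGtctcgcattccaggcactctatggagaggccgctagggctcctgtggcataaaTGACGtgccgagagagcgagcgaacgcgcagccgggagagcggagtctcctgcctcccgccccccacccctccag
IER2 held 1 copy of this core, CSRNP1 held 2 and NR4A3 held 4, against 24.6% of all windows with at least 1. The other CSRNP1 window held none. Last is IER5, which stood at different levels in the lines and was lower with ACBI-1 in MOLT-4 cells; capitals mark a match to GAANNTTC, the core of a heat shock element.
IER5 (chr1:181088450-181088749, plus strand): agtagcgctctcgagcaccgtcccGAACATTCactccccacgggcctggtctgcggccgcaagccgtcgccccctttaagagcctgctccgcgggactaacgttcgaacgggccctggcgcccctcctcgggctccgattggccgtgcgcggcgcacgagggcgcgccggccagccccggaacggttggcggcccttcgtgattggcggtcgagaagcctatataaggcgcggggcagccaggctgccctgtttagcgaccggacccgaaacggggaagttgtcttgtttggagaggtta
This match, GAACATTC, began 226 bases before the start. The window of IER5L, the closest relative of IER5, held the same letters 212 bases before its start, and 6.77% of all windows held the motif. The EGR site GCGGGGGCG, the NR4A site AAAGGTCA and the AP-1 site TGAGTCA, searched on both strands and found in 5.07%, 1.22% and 4.95% of all windows, were in none of the windows of the 8 genes. The NR4A1 windows held none of the motifs searched. A match describes letters only, and binding was not measured.

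The 10 genes covered a wide range of levels. On a per-length scale, as RPKM (CPM per kilobase of transcript), EGR1 and IER5 were highest in DND-41 cells, with mean levels of 11.1 RPKM (EGR1) and 10.5 RPKM (IER5) with ACBI-1, and 9.97 RPKM (EGR1) and 11.5 RPKM (IER5) with DMSO. IER2 followed at 4.05 RPKM with ACBI-1 and 6.21 with DMSO, and IER3 at 1.15 with ACBI-1 and 4.87 with DMSO. EGR3, NR4A1 and NR4A3 were at the bottom in DND-41 cells, each at or under 0.148 RPKM. In MOLT-4 cells with ACBI-1 the mean levels were 10.5 RPKM for EGR1, 6.59 for IER2, 4.29 for NR4A1, 3.24 for IER5 and 1.98 for IER3. In MOLT-4 cells with DMSO they were 9.26 RPKM for IER2, 7.67 for EGR1, 5.37 for IER5, 5.05 for NR4A1 and 4.98 for IER3, so that NR4A1 was among the 5 highest of the 10 genes in MOLT-4 cells. Several neighbours in these orders did not differ beyond their spread. In DND-41 cells these were EGR1 and IER5 with ACBI-1, each step from CSRNP1 down through EGR2, IER5L and NR4A1 to EGR3 with ACBI-1, and IER5L, NR4A1 and EGR3 with DMSO. In MOLT-4 cells they were EGR3, CSRNP1, IER5L and NR4A3 with ACBI-1, and with DMSO both IER5, NR4A1 and IER3 and, lower down, EGR2, IER5L and NR4A3.

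**Figure D1:**
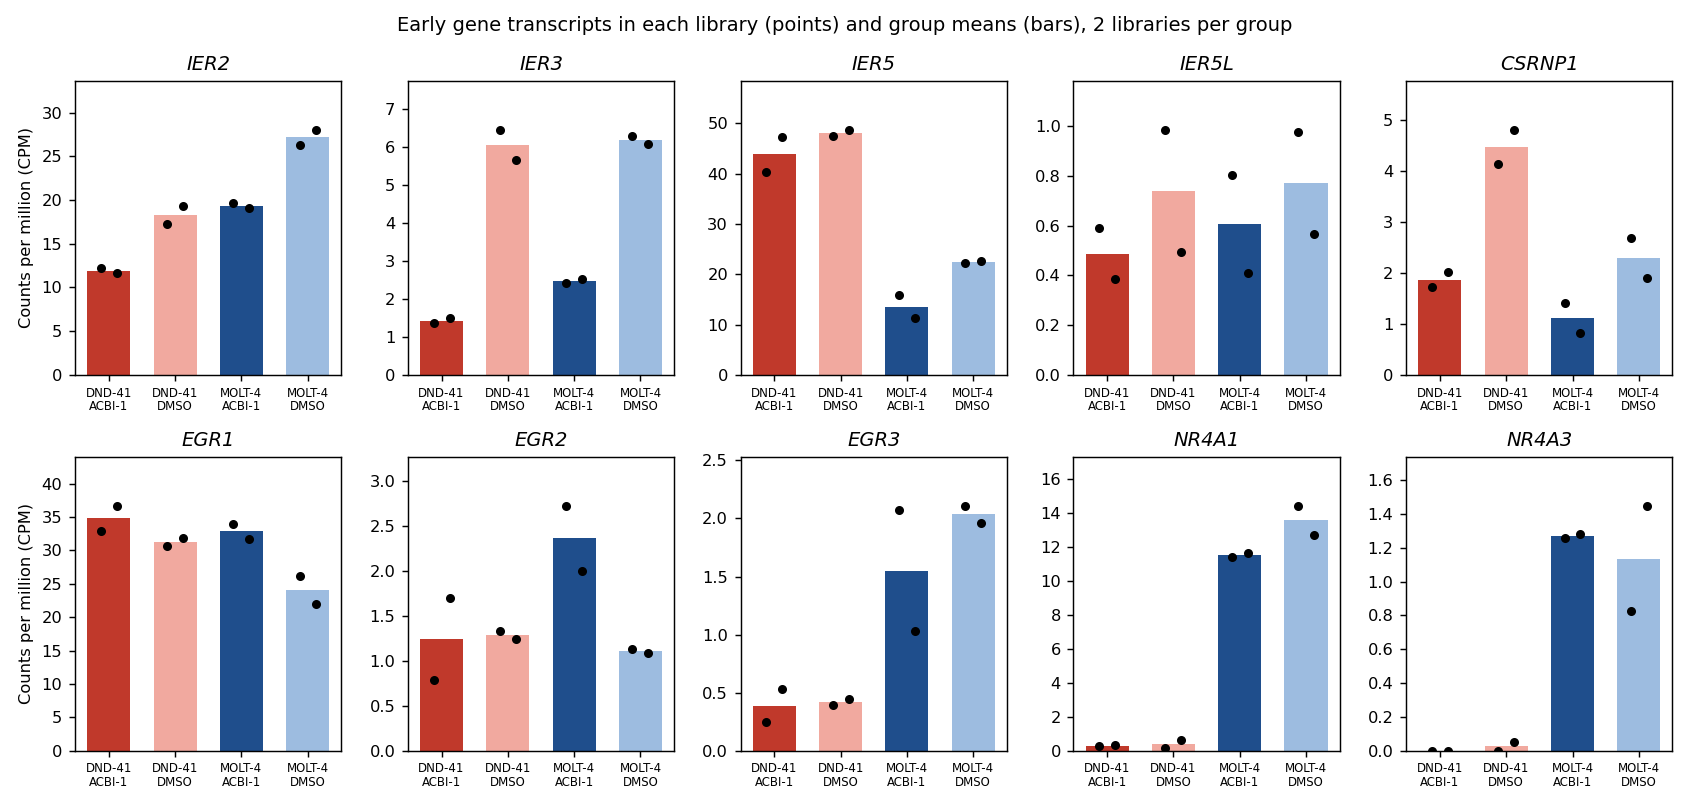
Level of each early gene in CPM (counts scaled to library size; vertical axis, a separate linear scale for each gene) in DND-41 and MOLT-4 cells with ACBI-1 or DMSO; points are libraries and bars are means of 2. IER2, IER3 and CSRNP1 were lower with ACBI-1 in both lines, EGR2 was higher with ACBI-1 in MOLT-4 cells, and NR4A1 and NR4A3 were near 0 in DND-41 cells.

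Do 3 h of the degrader change these transcripts? In DND-41 cells, 3 of 7 genes tested fell with ACBI-1, by edgeR and by DESeq2, and 0 rose, also at an unadjusted p below 0.05 by edgeR, beside 9.83% of all 14019 genes called at an adjusted p below 5% (3.78% higher and 6.05% lower). In MOLT-4 cells, 4 of 10 fell and 2 rose by edgeR, beside 10.8% of 14470 genes called (3.9% higher and 6.94% lower). Of these MOLT-4 calls, those of CSRNP1 and EGR2 were lost with DESeq2 (adjusted p = 0.219 and 0.161). IER3, CSRNP1 and IER2 fell in both lines, IER5 fell in MOLT-4 cells, and EGR1 and EGR2 rose in MOLT-4 cells. The median log2 change of the genes tested was -0.59 in DND-41 and -0.38 in MOLT-4, against 0.00 over all genes in DND-41 and -0.00 in MOLT-4. EGR3, NR4A1 and NR4A3 had too few reads in DND-41 cells to be tested. As bulk RNA was measured, fewer expressing cells and less RNA per cell cannot be told apart.

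IER3, an ERK substrate linked to cell survival, had the largest change of the 10 genes in each line. In DND-41 cells it had 28 and 31 reads with ACBI-1, against 131 and 114 reads with DMSO. In MOLT-4 cells it had 48 and 49 reads with ACBI-1, against 122 and 118 reads with DMSO. Every ACBI-1 library was far below both DMSO libraries of its line, and the replicates lay close together. The level fell to 1.43 ± 0.0845 CPM in DND-41 cells with ACBI-1, against 6.05 ± 0.559 CPM with DMSO (SD, n = 2 each), a 4.17-fold decrease with a log2 change of -2.06 ± 0.22 (SE; edgeR adjusted p = 2.59e-08). In MOLT-4 cells it fell to 2.47 ± 0.0687 CPM with ACBI-1, against 6.19 ± 0.134 CPM with DMSO, a 2.52-fold decrease with a log2 change of -1.33 ± 0.18 (edgeR adjusted p = 9.5e-06). By size the decrease ranked 5 of 848 genes called lower in DND-41 and 74 of 1004 in MOLT-4.

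CSRNP1, a nuclear protein with a cysteine- and serine-rich region, had 35 and 42 reads in DND-41 cells with ACBI-1, against 84 and 97 reads with DMSO. In MOLT-4 cells CSRNP1 had 28 and 16 reads with ACBI-1, against 52 and 37 reads with DMSO. The groups did not overlap in either line, but the MOLT-4 replicates were spread more widely. The log2 change was -1.24 ± 0.22 in DND-41 (2.36-fold lower, edgeR adjusted p = 0.000197) and -1.04 ± 0.30 in MOLT-4 (2.06-fold lower, edgeR adjusted p = 0.0243). The MOLT-4 call was lost with DESeq2 (adjusted p = 0.219) and with scaling by total counts (0.0525), and in fits of all 8 libraries that left out the second MOLT-4 ACBI-1 library (-0.71, edgeR adjusted p = 0.294) or the first MOLT-4 DMSO library (-0.78, 0.259).

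IER2, a small nuclear early response protein, had 248 and 241 reads in DND-41 cells with ACBI-1, against 349 and 388 reads with DMSO. In MOLT-4 cells there were 388 and 372 IER2 reads with ACBI-1, against 511 and 543 reads with DMSO. The ACBI-1 libraries were below both DMSO libraries in each line. The level fell by 34% in DND-41 (log2 change -0.60 ± 0.11, edgeR adjusted p = 0.000243) and fell by 29.3% in MOLT-4 (log2 change -0.50 ± 0.09, edgeR adjusted p = 0.000344).

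IER5, which binds the heat shock factor HSF1 and the phosphatase PP2A, was the gene of the 10 with the smallest p for a difference between the lines' responses. In DND-41 cells it had 824 and 983 reads with ACBI-1, against 965 and 981 reads with DMSO. MOLT-4 cells had 313 and 221 reads with ACBI-1, against 432 and 440 reads with DMSO. The second DND-41 ACBI-1 library was level with the DMSO libraries, at 47.3 CPM against 47.5 and 48.7 CPM, whereas both MOLT-4 ACBI-1 libraries were well below theirs. The log2 change was -0.12 ± 0.08 in DND-41 (95% interval -0.28 to 0.05, edgeR adjusted p = 0.447) and -0.74 ± 0.12 in MOLT-4 (edgeR adjusted p = 6.82e-05), where the level fell by 40%. IER5L, the close relative of IER5, had 8 to 20 reads per library, the ACBI-1 and DMSO libraries overlapped in both lines, and the intervals of its log2 change were wide (-1.53 to 0.35 in DND-41 and -1.24 to 0.55 in MOLT-4).

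The EGR genes either rose or did not pass the test. EGR1, the founding member of the family, had 670 and 763 reads in DND-41 cells with ACBI-1, against 623 and 642 reads with DMSO. MOLT-4 cells had 674 and 617 reads with ACBI-1, against 508 and 426 reads with DMSO. The ACBI-1 libraries were above both DMSO libraries in each line. The log2 change was 0.17 ± 0.08 in DND-41, which did not pass the test (95% interval -0.00 to 0.34, edgeR adjusted p = 0.239), and 0.44 ± 0.09 in MOLT-4, a rise of 35.5% (edgeR adjusted p = 0.00159). The MOLT-4 call was lost in fits of all 8 libraries without the first MOLT-4 ACBI-1 library (0.38, edgeR adjusted p = 0.0618) or without the second MOLT-4 DMSO library (0.31, 0.106).

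EGR2, a factor induced by T-cell receptor signals, had 16 and 35 reads in DND-41 cells with ACBI-1, against 27 and 25 reads with DMSO. MOLT-4 cells had 54 and 39 reads with ACBI-1, against 22 and 21 reads with DMSO. The DND-41 groups overlapped and the MOLT-4 groups did not. The log2 change was -0.04 ± 0.34 in DND-41 (95% interval -0.74 to 0.66) and 1.08 ± 0.28 in MOLT-4, a 2.11-fold rise (edgeR adjusted p = 0.0125) that ranked 30 of 564 genes called higher. At these counts the MOLT-4 call was lost with DESeq2 (adjusted p = 0.161) and in 3 of 4 fits of all 8 libraries that left out a MOLT-4 library, namely the first ACBI-1 (0.83, edgeR adjusted p = 0.318), the first DMSO (1.11, 0.118) and the second DMSO library (1.04, 0.163). EGR3, which acts beside EGR2 in T cells, had 5 and 11 reads in DND-41 cells with ACBI-1, against 8 and 9 reads with DMSO, and was not tested there. In MOLT-4 cells it had 41 and 20 reads with ACBI-1, against 41 and 38 reads with DMSO, with a log2 change of -0.40 ± 0.29 (95% interval -1.01 to 0.20, edgeR adjusted p = 0.468) that was 0.02 without the lower ACBI-1 library.

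NR4A1, also called Nur77 and widely used as a reporter of T-cell receptor signals, had 5 and 7 reads in DND-41 cells with ACBI-1, against 3 and 13 reads with DMSO. In the second DND-41 DMSO library 1.64 of the 13 reads would be expected from its MOLT-4 reads. In MOLT-4 cells NR4A1 had 227 and 225 reads with ACBI-1, against 279 and 245 reads with DMSO. Both MOLT-4 ACBI-1 libraries were below both DMSO libraries, with a log2 change of -0.24 ± 0.12 (95% interval -0.48 to -0.01) that did not pass after adjustment (edgeR adjusted p = 0.209). NR4A3, another orphan receptor of the family, had 0 and 0 reads in DND-41 cells with ACBI-1, against 0 and 1 read with DMSO. In MOLT-4 cells it had 25 and 25 reads with ACBI-1, against 16 and 28 reads with DMSO, and the ACBI-1 libraries lay between the DMSO libraries (log2 change 0.15 ± 0.33, 95% interval -0.53 to 0.84).

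**Figure D2:**
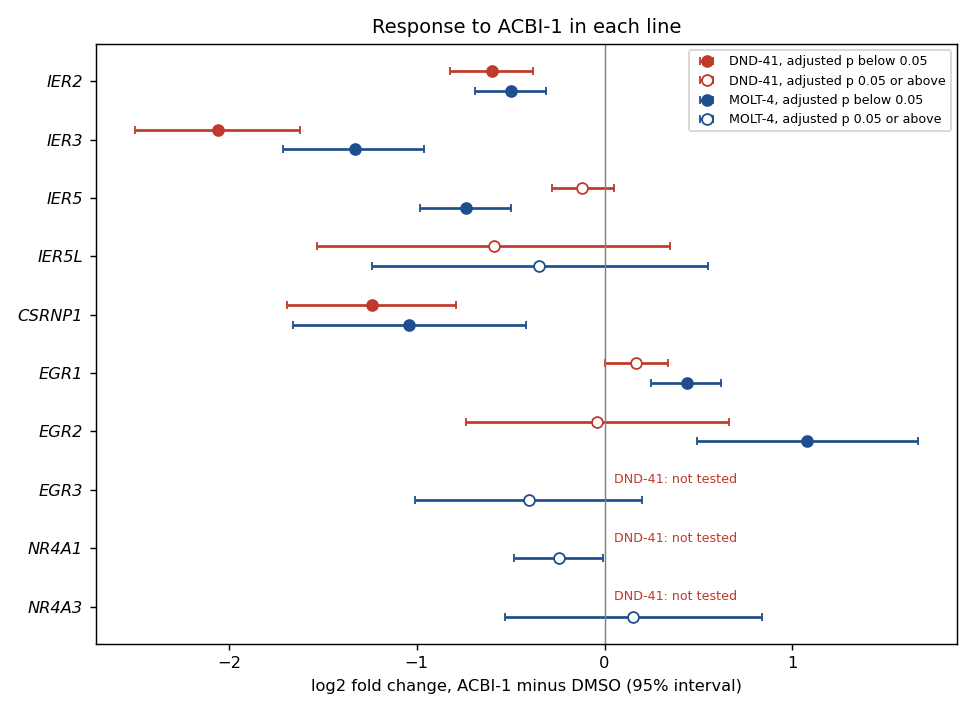
Log2 fold change of each early gene, ACBI-1 minus DMSO, in DND-41 (red) and MOLT-4 (blue) cells, with 95% intervals from the edgeR fit of each line; filled points had an adjusted p below 0.05. IER2, IER3 and CSRNP1 lay left of 0 in both lines, and EGR1 and EGR2 right of 0 in MOLT-4 cells.

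Counted by separation alone, ACBI-1 libraries were below both DMSO libraries for 4 genes in DND-41 (IER2, IER3, IER5 and CSRNP1) and above both for EGR1. Over all genes tested 49% did not overlap, 27.5% with ACBI-1 below and 21.4% above. In MOLT-4 they were below for 5 genes (IER2, IER3, IER5, CSRNP1 and NR4A1) and above for EGR1 and EGR2, beside 50.8% of all genes, 24.9% below and 26% above. Of the 7 genes tested in both lines, 3 were called in both by edgeR and all 3 were lower. Among them, CSRNP1 lost its MOLT-4 call with DESeq2. Over all 12968 genes tested in both lines, 655 were called in both (5.05%), 431 of them lower in both and 208 higher in both.

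All calls with ACBI-1 in either line were lost without the filter on low counts (edgeR adjusted p for IER3 0.0645 in DND-41 and 0.0602 in MOLT-4) and in fits of a single line that left out either ACBI-1 library, where 0 genes of all were called in DND-41 and 22 to 43 in MOLT-4. In fits of all 8 libraries less 1 library of the line, IER2, IER3 and CSRNP1 in DND-41 and IER2, IER3 and IER5 in MOLT-4 passed in 4 of 4. Without the second DND-41 DMSO library, to which MOLT-4 reads were assigned, the log2 changes in DND-41 were -2.16 for IER3, -1.13 for CSRNP1 and -0.52 for IER2.

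**Figure D3:**
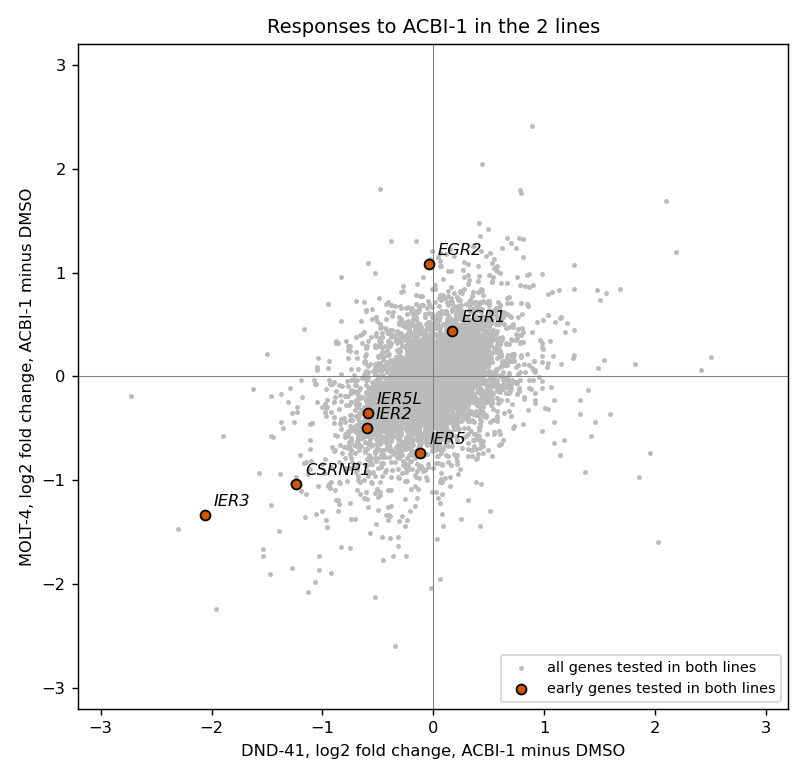
Log2 fold change with ACBI-1 in DND-41 (horizontal axis) and MOLT-4 (vertical axis) for the 12968 genes tested in both lines (grey) and the 7 early genes among them (orange). IER3 (-2.06 and -1.33) lay near the lower left edge of all genes, and EGR2 (-0.04 and 1.08) straight above the origin.

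IER3 had the smallest p of the early genes in each line. Among 9952 genes with a mean of at least 5 CPM, the 3 genes nearest to IER3 over its 3 log2 values (the change with ACBI-1 in DND-41, that in MOLT-4, and DND-41 minus MOLT-4 in DMSO) were HYLS1, HES1 and TAGAP, at distances of 0.68, 0.73 and 0.97. HYLS1, a centriole and cilium protein, had values of -1.54, -1.66 and -0.33. HES1, a repressor and classical Notch target, had -1.54, -1.73 and 0.31. TAGAP had -1.39, -1.49 and 0.66. IER3 itself had -2.06, -1.33 and -0.03, so that each of these genes was nearer to an equal decrease in both lines.

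How did the lines differ without the degrader? In DMSO, 7 of the 10 genes differed between DND-41 and MOLT-4 cells, 3 higher and 4 lower in DND-41, beside 64.4% of all 15604 genes called (31.6% higher and 32.8% lower). NR4A1, NR4A3 and EGR3 were the furthest apart. These 3 entered the test through their MOLT-4 counts alone, so a difference was built into their being tested. Their levels are given as counts and their calls support nothing. The counts of 7 differing and 4 lower include these 3 genes, so neither count is read against the share of all genes. IER5, CSRNP1 and EGR1 were higher in DND-41, and IER2 was lower.

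The summed NR4A1 count in DMSO was 16 reads over the DND-41 libraries and 524 reads over the MOLT-4 libraries, a ratio of MOLT-4 to DND-41 of 34.2 (95% exact interval 20.8 to 60.2, counting error only). With ACBI-1 it was 12 and 452 reads, a ratio of 39.4 (22.3 to 76.9). For NR4A3 in DMSO there was 1 read in DND-41 and 44 reads in MOLT-4, a ratio of 45.9 with an interval of 7.82 to 1850. With ACBI-1 NR4A3 had 0 reads in DND-41 and 50 in MOLT-4, so that MOLT-4 cells were at least 17.4-fold higher (a floor of 3 counts over the group). EGR3 had 17 reads in DND-41 and 79 in MOLT-4 in DMSO, a ratio of 4.85 (2.85 to 8.74), and 16 and 61 reads with ACBI-1, a ratio of 3.99 (2.27 to 7.41). The line with fewer reads was thus the same under both treatments for all 3 genes.

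IER5 averaged 48.1 ± 0.836 CPM in DND-41 cells and 22.5 ± 0.336 CPM in MOLT-4 cells with DMSO (SD, n = 2 each), a log2 difference of 1.10 ± 0.10 (edgeR adjusted p = 1.99e-10). CSRNP1 averaged 4.48 ± 0.48 CPM in DND-41 and 2.29 ± 0.542 CPM in MOLT-4, a difference of 0.96 ± 0.22 (edgeR adjusted p = 0.000486). EGR1 averaged 31.3 ± 0.844 CPM in DND-41 and 24.1 ± 2.94 CPM in MOLT-4, a difference of 0.38 ± 0.09 (edgeR adjusted p = 0.000818) that was lost without the second MOLT-4 DMSO library (0.22, adjusted p = 0.077). IER2 was lower in DND-41, at 18.2 ± 1.47 CPM against 27.2 ± 1.22 CPM in MOLT-4, a difference of -0.58 ± 0.09 (edgeR adjusted p = 4.52e-06). IER3 stood at almost the same level, 6.05 ± 0.559 CPM in DND-41 and 6.19 ± 0.134 CPM in MOLT-4, with a 95% interval for the log2 difference of -0.35 to 0.28. EGR2 and IER5L had intervals of -0.51 to 0.93 and -0.97 to 0.85.

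Did the responses themselves differ? None of the 10 genes passed the test of the difference between the responses at an adjusted p below 5%, by edgeR or by DESeq2, beside 0.641% of all 15604 genes. By edgeR 4 of the 10 had an unadjusted p below 0.05, beside 7.64% of all genes, and by DESeq2 1 had. The 4 were IER5, IER3, EGR2 and EGR1. For IER5 the response was less negative in DND-41 by 0.60 ± 0.15 on the log2 scale (95% interval 0.29 to 0.90, edgeR adjusted p = 0.0604), which passed with DESeq2 size factors (adjusted p = 0.047), with the MOLT-4 reads subtracted (0.049), with a correction for GC content (0.0379), without the first DND-41 ACBI-1 library (0.0136) and without the first MOLT-4 ACBI-1 library (0.00809). For IER3 the response was more negative in DND-41, with a difference of -0.75 ± 0.29 (edgeR adjusted p = 0.417). For EGR2 the difference was -1.14 ± 0.46 (edgeR adjusted p = 0.47) and for EGR1 -0.29 ± 0.13 (edgeR adjusted p = 0.565), both less positive in DND-41. IER2 and CSRNP1 had differences near 0, of -0.12 (95% interval -0.41 to 0.16) and -0.22 (-1.02 to 0.58).

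**Figure D4:**
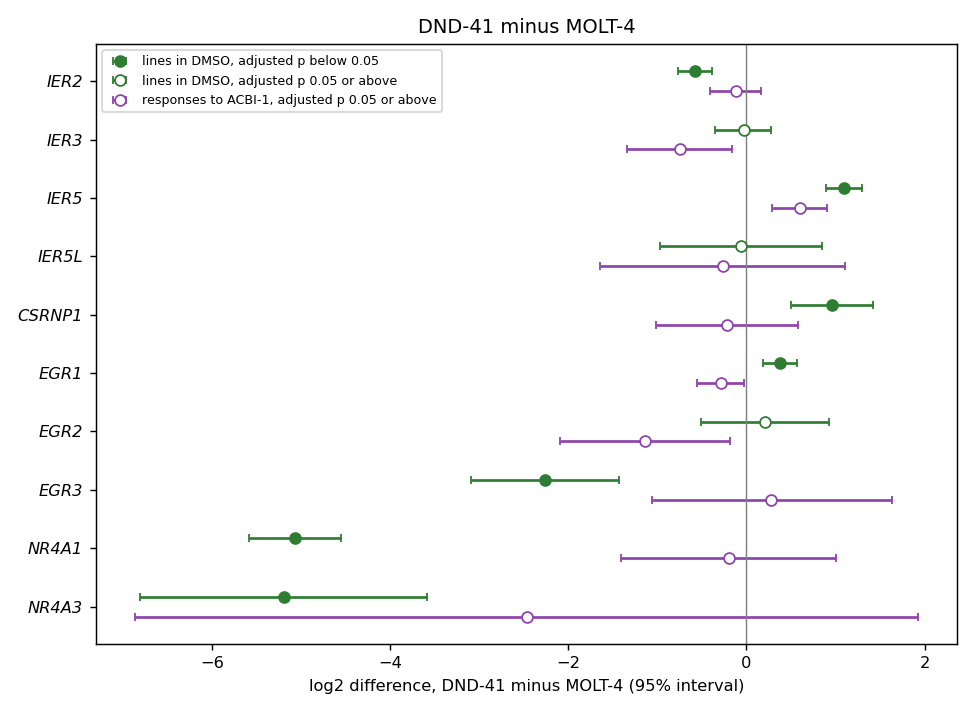
Log2 difference of DND-41 minus MOLT-4 for each early gene, in DMSO (green) and for the response to ACBI-1 (purple), with 95% intervals; filled points had an adjusted p below 0.05. NR4A1, NR4A3 and EGR3, which were tested through their MOLT-4 counts alone, lay far left of 0 in DMSO, IER5, CSRNP1 and EGR1 right of it, and no response differed past the threshold.

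Partners of the early genes were described as lists. Among 6 relatives and corepressors of the EGR, NR4A and CSRNP families, 4 were tested in each line and 1 of them fell in each. This was NAB2, a corepressor that EGR proteins bind and induce. NAB2 had 256 and 306 reads in DND-41 cells with ACBI-1, against 405 and 424 reads with DMSO (log2 change -0.57 ± 0.11, edgeR adjusted p = 0.000313). In MOLT-4 cells NAB2 had 333 and 321 reads with ACBI-1, against 405 and 401 reads with DMSO (log2 change -0.33 ± 0.10, edgeR adjusted p = 0.0251). The MOLT-4 call was lost with DESeq2 (adjusted p = 0.199), with scaling by total counts (0.0537) and in 4 of 4 fits of all 8 libraries that left out a MOLT-4 library (edgeR adjusted p = 0.119 to 0.161, log2 changes of -0.32 to -0.35).

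On the route from ERK and SRF to early genes, 1 of 19 genes rose and 2 fell in DND-41, and 3 of 19 fell in MOLT-4, with a median log2 change of -0.04 in each. The counts of each list of partners stand beside the 9.83% of all genes called in DND-41 (3.78% higher, 6.05% lower) and 10.8% in MOLT-4 (3.9% higher, 6.94% lower), and nothing particular to a list is read from them. SRF itself rose in DND-41 (0.42 ± 0.07, edgeR adjusted p = 4.61e-05) and had 0.16 ± 0.06 in MOLT-4 (adjusted p = 0.093). RPS6KA1, the ERK-activated kinase RSK1, fell by 0.39 on the log2 scale in DND-41 and fell by 0.45 in MOLT-4, and ELK3, an ETS partner of SRF, fell by 0.43 in DND-41 and fell by 0.58 in MOLT-4. Both ELK3 calls were lost with DESeq2 (adjusted p = 0.108 in DND-41 and 0.16 in MOLT-4) and in 3 of 4 fits of all 8 libraries less 1 library of the line. Without the second MOLT-4 DMSO library the ELK3 change in MOLT-4 was -0.37 (edgeR adjusted p = 0.316). EP300, an acetyltransferase recruited by ETS partners of SRF, fell in MOLT-4 (-0.28 ± 0.06, edgeR adjusted p = 0.00296) and had -0.09 in DND-41 (adjusted p = 0.49). The EP300 call was lost in fits of all 8 libraries without the first MOLT-4 ACBI-1 library (-0.23, edgeR adjusted p = 0.121) or the second MOLT-4 DMSO library (-0.26, 0.0586).

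Of the genes that carry T-cell receptor signals to ERK and calcium, 4 of 19 fell in DND-41, and 6 of 20 fell and 1 rose in MOLT-4, with medians of -0.03 and -0.04. The adaptor LCP2 (SLP-76) fell in both lines (-0.33 ± 0.07 in DND-41 and -0.51 ± 0.07 in MOLT-4). The adaptor LAT had -0.48 ± 0.20 in DND-41 (edgeR adjusted p = 0.13) and fell in MOLT-4 (-0.71 ± 0.09). HDAC7, a deacetylase that represses Nr4a1 in mouse T-cell hybridomas, fell in DND-41 (-0.50 ± 0.08) and had -0.07 ± 0.06 in MOLT-4 (adjusted p = 0.574).

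Among genes linked to EGR or NR4A in T cells, 3 of 13 rose and 2 fell in DND-41, and 2 of 13 rose and 4 fell in MOLT-4. ID3, an inhibitor of E proteins that EGR factors induce in mouse thymocytes, rose in DND-41 (1.27 ± 0.08, edgeR adjusted p = 7e-14) and had 0.21 in MOLT-4 (adjusted p = 0.18). TNF fell in DND-41 (-1.06 ± 0.10) and was not tested in MOLT-4, whereas PDCD1, the inhibitory receptor PD-1, fell in MOLT-4 (-1.86 ± 0.14) and was not tested in DND-41. CD5, an inhibitor of receptor signalling, fell in MOLT-4 (-0.54 ± 0.06) and had -0.51 ± 0.31 in DND-41. Of HSF1 and its targets, the pathway in which IER5 acts, 1 of 11 fell in DND-41 (the cochaperone DNAJB1, -0.27 ± 0.07) and 2 of 10 fell in MOLT-4 (the cochaperone BAG3, -0.57 ± 0.10, and HSPA1B, -0.51 ± 0.16). The DNAJB1 call was lost in the fit of all 8 libraries without the second DND-41 DMSO library (-0.26, edgeR adjusted p = 0.0765). The HSPA1B call was lost with DESeq2 (adjusted p = 0.212), with scaling by total counts (0.108) and in 3 of 4 fits of all 8 libraries less 1 MOLT-4 library, and without the second MOLT-4 ACBI-1 library the change was -0.21 (edgeR adjusted p = 0.562). HSPA1B may share reads with its near-identical copy HSPA1A.

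Of 28 other early genes, 3 of 25 tested rose and 12 fell in DND-41, and 1 of 23 rose and 11 fell in MOLT-4. Their median log2 changes, -0.32 and -0.34, were lower than those of all genes. The medians of the genes tested among the 10 described here were also lower, but they rested on genes that did not pass the test. ZFP36, which destabilises early transcripts, fell in both lines (-0.77 ± 0.09 in DND-41 and -0.69 ± 0.08 in MOLT-4), as did the repressor BHLHE40 (-0.50 ± 0.08 in DND-41 and -1.29 ± 0.11 in MOLT-4). KLF10, a zinc finger repressor, fell in MOLT-4 (-1.55 ± 0.08) and had -0.32 ± 0.12 in DND-41 (edgeR adjusted p = 0.0884). GADD45B, a stress sensor, rose in DND-41 (0.99 ± 0.08) and had 0.26 ± 0.15 in MOLT-4 (adjusted p = 0.338).

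In the authors' deposited table for DND-41, 3 of the 6 early genes with an adjusted p were past 5%, IER3 (1.52e-07), IER2 (0.00975) and CSRNP1 (0.0112). In the authors' deposited table for MOLT-4, 4 of 9 were past 5%, IER3 (0.000494), IER5 (0.000892), IER2 (0.00829) and EGR1 (0.0188), while CSRNP1 (0.279) and EGR2 (0.206) were not. The sign in the authors' deposited table runs as ACBI-1 minus DMSO for DND-41 and as DMSO minus ACBI-1 for MOLT-4, where IER3 is given as 1.33 and EGR1 as -0.45.

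In the annotation used for lengths (GENCODE 29), genes on the opposite strand overlap IER2, IER3, IER5L, CSRNP1, EGR3 and NR4A1, and none overlaps IER5, EGR1, EGR2 or NR4A3. The libraries were strand-specific, but no source used here gives the strand setting of the counting. For the first 6, reads of a gene and of its partner therefore cannot be told apart.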

How the data were processed

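Per the labels' protocols, strand-specific paired-end reads were made from total RNA. The authors deposited raw counts per gene, with no normalization, in a table for each line, and per the submitters' processing notes STAR 2.5.2a, featureCounts, DESeq2 1.12.4 and hg19 were used. The authors also deposited a comparison table for each line with a mean signal per gene, a log2 fold change, a test score and raw and adjusted p-values, per the file headers. The direction of these signs was read from their correlation with the counts.

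All 8 libraries were grouped by their titles. The test was the quasi-likelihood F-test of edgeR 4.0.16, run under R 4.3.3 with limma 3.58.1, after TMM scaling and filterByExpr, each line on its own 4 libraries with no covariate; comparisons of lines used all 8 libraries. Benjamini-Hochberg adjustment covered every gene tested, with a threshold of 5%. With 2 against 2 libraries no exact permutation test can reach that threshold. CPM are on one TMM scale of all 8 libraries. RPKM divides CPM by the principal transcript length in GENCODE 29. Replicates differed beyond sampling noise, so each library was counted separately in the tests. The ratios between the lines for NR4A1, NR4A3 and EGR3 used counts summed over the 2 libraries of a group. Their intervals leave out the spread between replicates and are too narrow for that reason. The mean chi-square per gene was 15.6 for DND-41 with ACBI-1 and 2.99 to 5.1 for the other groups. The DND-41 ACBI-1 pair, on which the DND-41 responses rest, also differed in mitochondrial share (17.4% and 13.3%). Scripts were tested on simulated data. No spike-in is named, so levels are relative to each library's total.

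The genes and the lists were chosen with earlier results of these data known. All 10 genes are named, with up to 4 genes per list with the smallest p in either line among those that passed, and the 3 genes nearest in pattern to the gene with the smallest p in each line; a gene that this rule names in the T-cell receptor list is not reported here. Alternatives were DESeq2 1.42.0, its size factors, total-count scaling, no filter, a 1% threshold, a replicate block, all 8 libraries in one fit, subtraction of MOLT-4 reads and leaving out each library. A GC correction and leaving out each library from the fit of all 8 were chosen after seeing the data.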

Additional observations from a re-analysis of the deposited data

Results flagged for a closer look

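No early gene of the 10 differed between the lines in its response past the threshold. Named partners that did were 5, by the edgeR test of the difference of responses (DND-41 minus MOLT-4, log2 scale), beside 0.641% of all 15604 genes. Partners were named for a small p in either line of these same libraries, which favours genes with a large response in a line. Their differences are therefore given as a description only, and no other setting was run for them. ID3 rose more in DND-41, by 1.04 ± 0.14 (adjusted p = 8.14e-05), with changes of 1.27 in DND-41 and 0.21 in MOLT-4. KLF10 fell less in DND-41, by 1.21 ± 0.15 (adjusted p = 3.62e-05), with -0.32 in DND-41 and -1.55 in MOLT-4. BHLHE40 also fell less in DND-41, by 0.76 ± 0.14 (adjusted p = 0.00362), with -0.50 in DND-41 and -1.29 in MOLT-4. GADD45B rose more in DND-41, by 0.70 ± 0.17 (adjusted p = 0.0488), with 0.99 in DND-41 and 0.26 in MOLT-4. HDAC7 fell more in DND-41, by -0.45 ± 0.10 (adjusted p = 0.0259), with -0.50 in DND-41 and -0.07 in MOLT-4.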

How the results depend on the processing

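With a replicate block, the called early genes were 3 in DND-41 and 6 in MOLT-4, as without it. Over all genes 2230 were called in DND-41 with the block, against 1378 without it. The labels do not tell whether same-numbered libraries were paired. Deviations of these libraries from the group means correlated at 0.0669 (DND-41) and 0.067 (MOLT-4), which cannot settle it. Without the filter on low counts, 0 early genes were called in either line, beside 2 genes of all in DND-41, 39 in MOLT-4 and 13 for the difference of responses; the cause was not tested. DESeq2 called 664 genes of all in DND-41 and 754 in MOLT-4. The 1% threshold called 763 and 879, and 50 for the difference of responses.

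Fits that left out 1 library called 0 to 3 early genes in DND-41, 0 to 6 in MOLT-4 and 0 to 1 for the difference of responses. Over all genes they called 0 to 1237, 22 to 1441 and 52 to 118. IER5 was the 1 early gene called for the difference of responses with DESeq2 size factors, with MOLT-4 reads subtracted and with the GC correction, for which at least 97% of genes had a GC value. These were 3 of 8 settings that kept all libraries, and IER5 was not called in the rest.

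All changes of sign were in values that had not passed the test. Leaving out libraries, the log2 change ran in DND-41 between -0.71 and 0.40 for EGR2 and between -0.03 and 0.13 for SMARCA4, and in MOLT-4 between -0.92 and 0.09 for IER5L, -1.0 and 0.02 for EGR3, -0.20 and 0.61 for NR4A3, -0.05 and 0.42 for ID3, and -0.04 and 0.13 for SMARCA4. The DMSO difference ran between -0.13 and 0.06 for IER3 and between -0.63 and 0.35 for IER5L, and for IER3 it was 0.02 with total-count scaling and 0.01 with the GC correction. The difference of responses ran between -0.68 and 0.33 for IER5L, -0.53 and 0.25 for CSRNP1, -0.37 and 0.90 for EGR3, and -0.90 and 1.19 for NR4A1. At 0 to 20 reads per library, changes in IER5L in both lines and in EGR3, NR4A1 and NR4A3 in DND-41 were not detectable at this depth unless large.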

Other observations

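Relatives of the early genes outside the list of 10 also stood apart between the lines; they were singled out after their values were seen. NR4A2, the remaining NR4A receptor, had 81 and 72 reads in DND-41 cells with DMSO and 3 and 3 reads in MOLT-4 cells with DMSO. It passed the filter on low counts through DND-41 alone, so the counts are given as a description. NR4A2 thus had more reads in DND-41 cells, where NR4A1 and NR4A3 had fewer than in MOLT-4 cells. With ACBI-1 NR4A2 had 54 and 58 reads in DND-41 cells, below both DMSO libraries, with a log2 change of -0.46 ± 0.21 that did not pass after adjustment (edgeR adjusted p = 0.187), and 2 and 0 reads in MOLT-4 cells. EGR4, the remaining EGR factor, had 0 reads in all 4 DND-41 libraries, and in MOLT-4 cells 19 and 5 reads with ACBI-1 and 20 and 6 reads with DMSO. CSRNP3 had 0 reads in all 8 libraries.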
